A study of Saccharomyces cerevisiae with 72 samples.

Results

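The genes described here are 41 genes of Saccharomyces cerevisiae that encode the thioredoxin system, the glutathione system and the enzymes that remove peroxide and superoxide. They were chosen by gene symbol, with earlier results of these data known. Counts set beside the share of all genes below thus describe the list and do not test it. The genes fall into 10 classes: peroxiredoxins, the thioredoxin system, glutathione peroxidases, glutaredoxins, glutathione supply, glutathione transferases and export, superoxide and heme peroxidase enzymes, regulators, NADPH and quinone reductases, and methionine sulfoxide reductases. All 41 were measured in both tables of the series, each by 1 probe, out of 5594 genes in one table and 5592 in the other. Each of the 72 arrays compared a BY4741 strain exposed for 1 h to methyl methanesulfonate (MMS), which alkylates DNA, with the untreated part of the same culture.

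Per the labels, the kinase set is 52 arrays of poly(A)-enriched RNA from 13 strains: wild type (wt) and the deletion strains sml1, tel1, chk1, ste11, crt1, dun1, chk1dun1, mec1, tel1mec1, rad53, chk1rad53 and dun1rad53. MMS was 0.033% by their treatment text and 0.03% by their growth text. The factor set is 20 arrays of total RNA, on another array design and at 0.03% MMS, from 5 strains with no wild type among them, namely yap7, hap1, hap4, sut1 and rcs1 (the AFT1 deletion). The strains wt, sml1, tel1, chk1 and ste11 keep MEC1, RAD53, DUN1 and CRT1 and are called checkpoint-proficient below. The labels do not say whether the strains without MEC1 or RAD53 also lack SML1, nor whether the 2 replicates of a strain came from different cultures. The p-values thus reflect only how these samples vary.

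Peroxiredoxins reduce peroxides with a cysteine that thioredoxin then restores, and thioredoxin reductase recharges thioredoxin with electrons from NADPH. Glutathione does parallel work: glutaredoxins reduce disulfides with it, glutathione transferases attach it to reactive compounds, and glutathione reductase restores it, again from NADPH. In yeast the transcription factor Yap1, which peroxide activates through the peroxidase Hyr1 (also called Gpx3), drives many of these genes, partly together with Skn7. In response to MMS damage the kinases Mec1 and Tel1 activate Rad53 and Chk1. Rad53 in turn activates Dun1, which relieves repression by Crt1 at the ribonucleotide reductase genes.

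Responses are given as log2 ratios of treated to untreated RNA. Each strain had 2 replicates, and a replicate is the mean of 2 arrays with opposite dyes. A gene was called when limma gave a Benjamini-Hochberg adjusted p under 0.05 over all genes. SEs and p-values of the fit come from the spread of replicates within strains. For groups of strains they leave out how the strains of a group differ. In the kinase set the fit's 95% interval reached, at the median over all genes, 0.20 to either side of a response and 0.28 to either side of a strain's difference from wild type. Some arrays stood apart. DUN1 itself read 2.71 on 1 of the dun1 arrays (replicate 2, MMS in Cy5), against -0.24, -0.12 and -0.11 on the others, so a channel of that array goes against its label. The chk1rad53 replicate 1 array with MMS in Cy3 had the smallest typical log2 ratio of all arrays, with a median size of 0.093 over all genes. Where leaving these arrays out ended a call named below, the value without them is given beside it. The dye also moved some of the genes: the mean over strains differed most between orientations for TRX2 (1.32 with MMS in Cy5 and 0.46 in Cy3, kinase set) and AHP1 (0.96 and 0.27). No probe sequences were used here, so sharing of signal between close paralogs such as TSA1 and TSA2 was not tested.

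In wild type 35 of the 41 genes rose after MMS, when 26.8% of all genes tested did. Only GRX4 and SKN7 fell, when 25.4% of all genes fell. The median response of the 41 was 0.67, beside 0.00 over all genes. In 11 genes the increase was at least 2-fold (1 or more on the log2 scale), and they came from 7 of the classes. The remaining 4 genes, SOD2, CTA1, GRX5 and MXR1, did not pass the test, with responses of 0.23, 0.05, 0.11 and 0.25.

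All 6 peroxiredoxin genes rose in wild type. SRX1 encodes sulfiredoxin, which repairs overoxidised peroxiredoxins, and read 2.35 and 2.46 in the replicates. TSA2, the less abundant cytosolic peroxiredoxin, read 1.77 and 2.04, a 3.74-fold increase. PRX1, the mitochondrial member, read 1.41 and 1.44. TSA1, the main cytosolic peroxiredoxin, moved much less, with 0.43 and 0.47. Its call was lost without either wild-type replicate (adjusted p 0.059 and 0.087). DOT5, the nuclear member, was called at 0.38 (SE 0.12) but read 0.70 and 0.05, so its value rests on replicate 1. AHP1 (alkyl hydroperoxide reductase) read 1.16 and 0.65. The AHP1 value differed by dye orientation: it was 1.95 from arrays with MMS in Cy5 and -0.15, not called, from arrays with MMS in Cy3.

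The thioredoxin genes split in the same way. TRX2, which supplies the peroxiredoxins, read 1.09 and 1.22, while its paralog TRX1 read 0.39 and 0.18. Thioredoxin reductase TRR1 rose by 0.61 (SE 0.13, adjusted p 0.00085) and the mitochondrial TRR2 by 0.39 (SE 0.08). TRX3, the mitochondrial thioredoxin, rose by 0.32 (SE 0.09). From arrays with MMS in Cy3 alone TRX2 was 0.38 (adjusted p 0.3) and TRX3 0.03 (0.84), neither of them called. Of the glutathione peroxidases GPX2 rose most, with 2.11 and 1.96, beside 0.75 for GPX1 and 0.58 for HYR1.

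Glutathione supply rose at each of its 3 genes. GSH1, the rate-limiting first step of glutathione synthesis, read 1.30 and 0.78. GLR1, glutathione reductase, read 1.33 and 1.36. GSH2, the second step of synthesis, rose by 0.50 (SE 0.09). The glutathione transferases held the largest response of the 41 genes: GTT2 read 2.86 and 3.18, an 8.13-fold increase. ECM4, an omega class transferase, read 2.15 and 2.33, GTT1 0.81 and 1.13, and YCF1, the vacuolar pump for glutathione conjugates, had a response of 0.63 (SE 0.08). All 6 genes of that class rose.

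The glutaredoxins did not share a direction. The dithiol glutaredoxins GRX1 and GRX2 rose by 0.90 (SE 0.15) and 0.68 (SE 0.16). The monothiol glutaredoxins GRX3 and GRX4, paralogs that act in iron sensing, went apart: GRX3 read 0.34 in both replicates and GRX4 -0.42 and -0.39. The regulators also went apart, with YAP1 at 0.98 and 1.10 and SKN7 at -0.31 and -0.45. Old yellow enzyme genes rose, OYE3 by 1.39 (replicates 0.96 and 1.82) and OYE2 by 0.80, as did ZWF1 (0.71), the first step of the NADPH-producing pentose phosphate pathway, and the quinone reductase LOT6 (0.67). SOD1, its copper chaperone CCS1 and the mitochondrial cytochrome c peroxidase CCP1 rose by 0.68, 0.58 and 0.37, of which CCP1 read 0.10 and 0.65. From arrays with MMS in Cy3 alone SOD1 was 0.17 (adjusted p 0.45) and CCP1 0.17 (0.33), neither of them called. MXR2, the mitochondrial methionine sulfoxide reductase, was called at 0.38 but read -0.02 and 0.78 in the replicates, so its value rests on replicate 2.

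**Figure D1:**
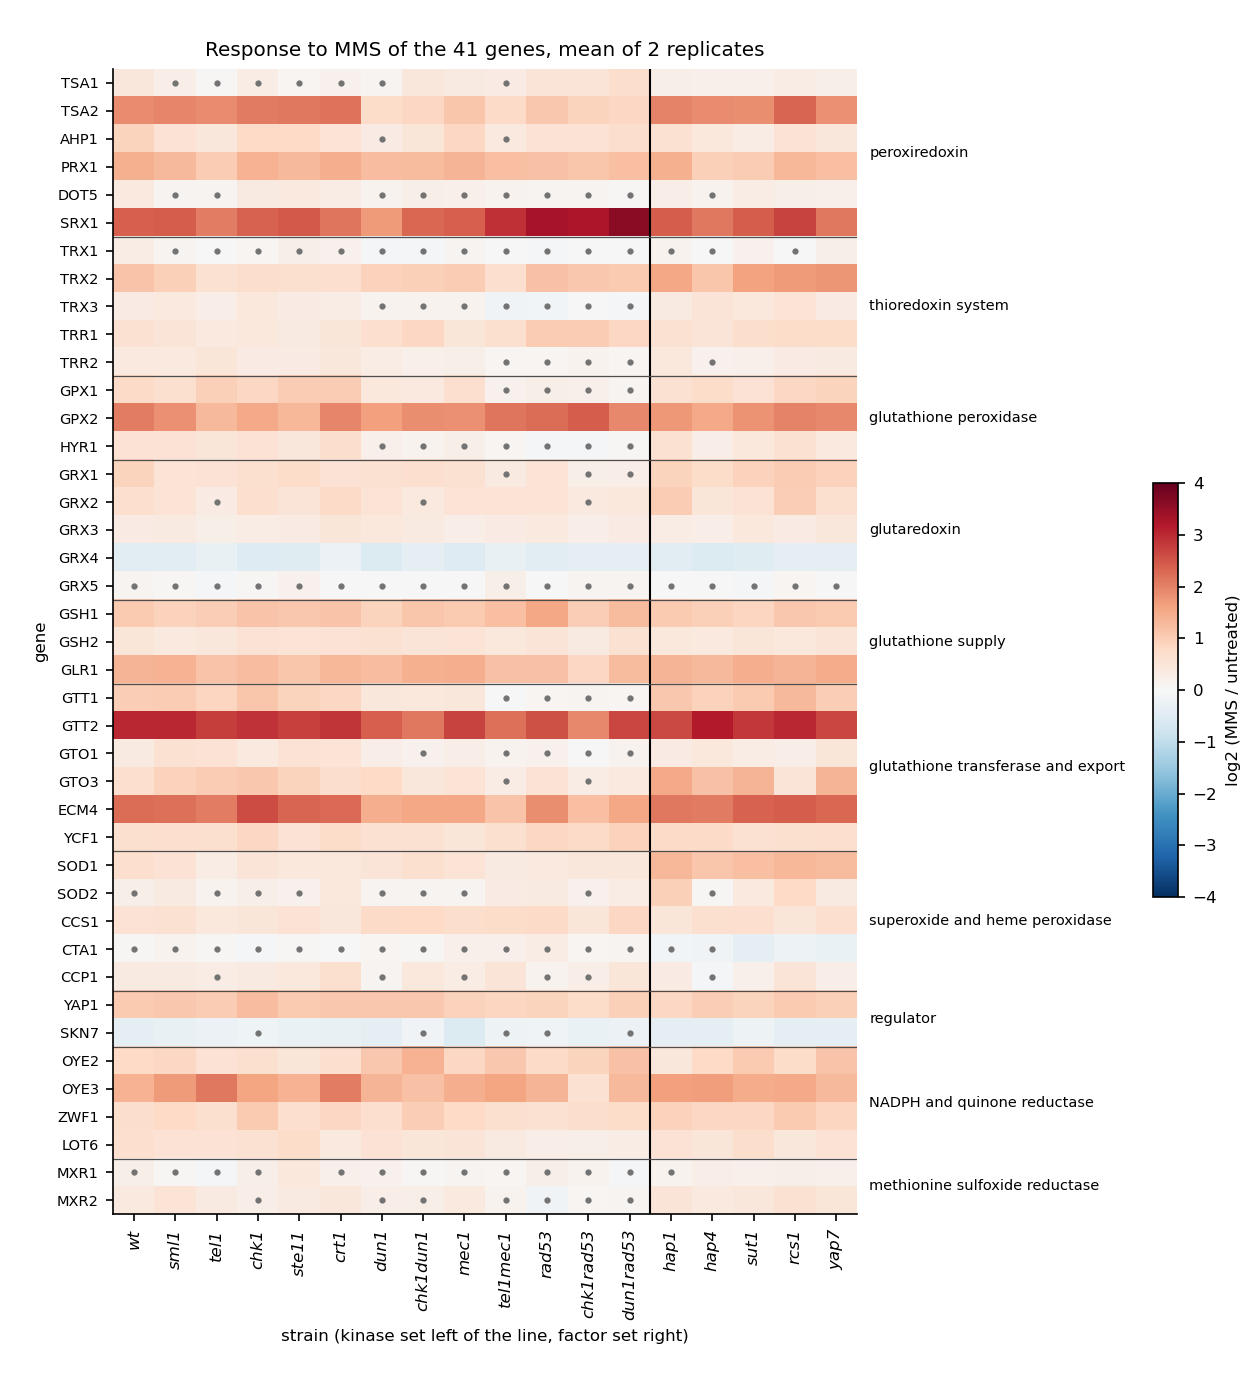
Colour gives the mean log2 response (MMS over untreated, n = 2 replicates) of each of the 41 genes (rows, by class) in each of the 18 strains (columns); a grey dot marks a response that was not called. GTT2, SRX1, ECM4, GPX2 and TSA2 were the genes of largest response in wild type, 20 genes were called higher in all 18 strains, and GRX4 was called lower in all 18.

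The response was not tied to one genotype. Called higher in every one of the 13 kinase-set strains were 20 of the 41 genes, when 6.04% of all genes were. In the 5 factor-set strains 31 were, when 18.2% of all genes were, and 20 were higher in all 18 strains, when 5.56% were. These 20 were TSA2, PRX1, SRX1, TRX2, TRR1, GPX2, GRX3, GSH1, GSH2, GLR1, GTT2, ECM4, YCF1, SOD1, CCS1, YAP1, OYE2, OYE3, ZWF1 and LOT6. They include every gene of glutathione supply and every NADPH and quinone reductase of the list, and none of the methionine sulfoxide reductases. GRX4 was lower in all 18 strains, when 3.11% of all genes were, with strain means from -0.54 (dun1) to -0.23 (crt1) in the kinase set. Its factor-set means ran from -0.56 in hap4 to -0.35 in yap7. SKN7 was called lower in 13 strains, and GRX5 and CTA1 (the peroxisomal catalase) were called higher in 0. The count of 20 in the kinase set was 13 without tel1 replicate 1, tel1mec1 replicate 1 or chk1rad53 replicate 2, and 16 when 4 arrays were left out (those of dun1 and chk1rad53 named above and both of mec1 replicate 1).

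By strain, the number of the 41 genes called higher ran beside the share of all genes called higher. It was 33 in sml1 (27.0% of all genes), 30 in tel1 (25.7%), 32 in chk1 (26.2%), 34 in ste11 (28.0%) and 34 in crt1 (26.7%). With DUN1 or MEC1 deleted it was 27 in dun1 (21.8%), 28 in chk1dun1 (21.1%), 30 in mec1 (23.6%) and 23 in tel1mec1 (17.4%). Without RAD53 it was 26 in rad53 (19.1%), 22 in chk1rad53 (11.2%) and 26 in dun1rad53 (19.0%). In every strain the share of the 41 was above that of all genes. The factor-set counts were 35 in hap1 (30.1%), 32 in hap4 (29.3%), 37 in sut1 (24.7%), 36 in rcs1 (29.6%) and 37 in yap7 (29.4%).

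Within that shared response, single genes differed between the checkpoint genotypes. TSA2 gave the widest gap. In the 10 replicates of the checkpoint-proficient strains it read from 1.77 to 2.18, with a median of 2.01, and in crt1 it read 2.28 and 2.06. In dun1 the replicates were 0.87 and 0.59, and chk1dun1 gave 0.88 and 0.80. The mec1 replicates were 1.13 and 1.09, and both of tel1mec1 were 0.77. The 6 replicates of the 3 strains without RAD53 read from 0.65 to 1.23, with a median of 0.88. Every replicate of these 7 strains lay below every replicate of the other 6. How many of all genes split in this way was not counted. One part of that split, rad53-deleted below checkpoint-proficient replicates, held for 9.08% of all genes. TSA2 was still called higher than untreated in all 13. In the factor set its strain means ran from 1.82 in yap7 to 2.34 in rcs1. The difference from the checkpoint-proficient strains was -1.05 (SE 0.07, adjusted p 1.5e-09) with RAD53 deleted, -1.21 (SE 0.11, 2.0e-07) in tel1mec1, -1.20 (SE 0.09, 1.7e-08) with DUN1 deleted and -0.87 (SE 0.11, 4.2e-05) in mec1. These contrasts share the same 5 control strains. With arrays scaled to one spread they were -0.54, -0.74, -0.83 and -0.48, of which that of mec1 was not called (adjusted p 0.17). Without the doubtful dun1 array, dun1 minus wild type was -1.41, beside -1.17 with it.

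The GTT1 response stood at 3 levels across the same strains. It read from 0.68 to 1.13 in the checkpoint-proficient replicates, with a median of 1.03. The dun1 replicates were 0.45 and 0.44, those of chk1dun1 0.37 and 0.49, and those of mec1 0.49 and 0.41. In tel1mec1 it read -0.12 and 0.06, and in the strains without RAD53 from -0.13 to 0.26, so that no response was called in those 4 strains. The 3 levels did not overlap between replicates, but they were named from these same values. How many of all genes split in this way was not counted. Rad53-deleted minus dun1-deleted strains was -0.35 (SE 0.10, adjusted p 0.030), a contrast in which 7.92% of all genes were lower, and -0.33 (adjusted p 0.038) without the doubtful dun1 array. That call was lost in 9 of 22 alternatives, with -0.32 without chk1dun1 replicate 2 and -0.22 from arrays with MMS in Cy3 alone. The difference of tel1mec1 from mec1 was -0.48 (95% interval -0.81 to -0.15) with an adjusted p of 0.14, which misses the threshold. GTT1 (YIR038C) and HYR1 (YIR037W) have neighbouring locus tags.

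ECM4 read from 2.05 to 2.67 in the checkpoint-proficient replicates. The dun1 replicates were 1.70 and 1.18, those of chk1dun1 1.51 and 1.60, and those of mec1 1.66 and 1.42. In tel1mec1 they were 1.19 and 1.08, and the strains without RAD53 ran from 1.13 to 2.08. The highest of these, rad53 replicate 1, overlapped the checkpoint-proficient range. The ECM4 difference from those strains was -0.75 (SE 0.08, adjusted p 5.7e-07) with RAD53 deleted and -1.15 (SE 0.12, 1.3e-06) in tel1mec1. These SEs leave out the spread between strains. The SD of ECM4 strain means was 0.33 over the 3 strains without RAD53 and 0.20 over the 5 checkpoint-proficient ones. The ECM4 and GTT2 differences depended on how arrays were scaled, and the spread of values was smaller on arrays of the kinase mutants. The median size of the log2 ratio over all genes was 0.27 on the checkpoint-proficient arrays (20 arrays), 0.20 with RAD53 deleted (12), 0.19 in tel1mec1 (4), 0.20 in mec1 (4) and 0.21 with DUN1 deleted (8). With all arrays scaled to one spread, TSA2 and GTT1 stayed called as lower with RAD53 deleted (-0.54 and -0.70). ECM4 moved to -0.09, which was not called, and GTT2 turned from -0.50 to 0.45, which was not called either.

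**Figure D2:**
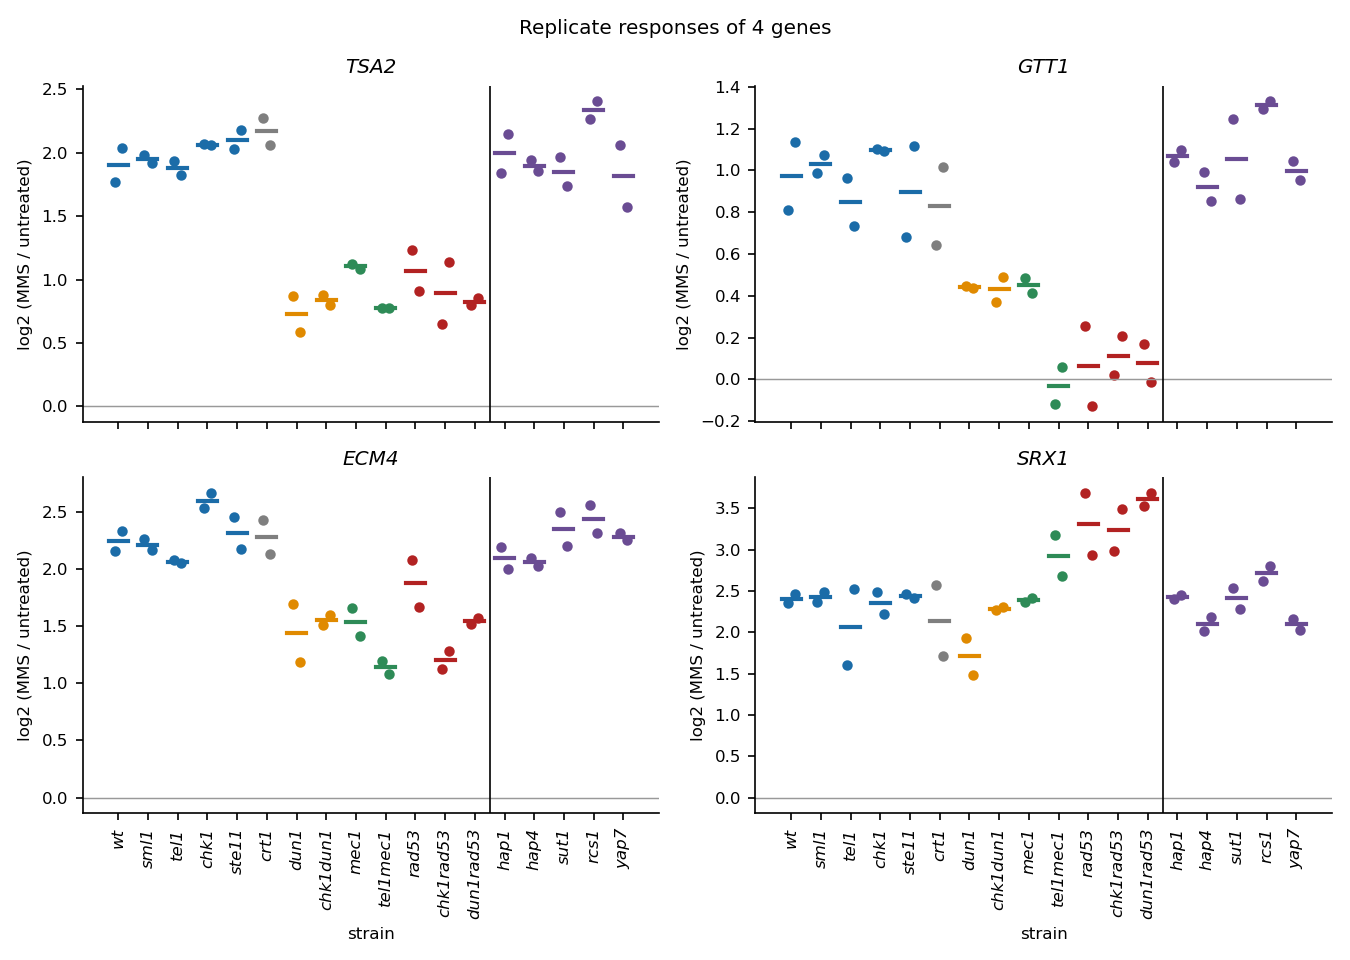
Points are the replicates and bars the means of the log2 response (MMS over untreated) of TSA2, GTT1, ECM4 and SRX1 by strain; blue is checkpoint-proficient, grey crt1, orange without DUN1, green without MEC1, red without RAD53 and violet the factor set. TSA2 lay at 1.77 or above in all checkpoint-proficient replicates and at 1.23 or below without RAD53, DUN1 or MEC1, while SRX1 lay at 2.93 or above in the strains without RAD53 and at 2.52 or below in the checkpoint-proficient ones.

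SRX1 went the other way: it was called higher than in the checkpoint-proficient strains with RAD53 deleted. It read from 1.60 to 2.52 in the checkpoint-proficient replicates, with a median of 2.44, and from 2.93 to 3.69 in the strains without RAD53, with a median of 3.51. The ranges did not overlap. The dun1 replicates were 1.94 and 1.48, those of chk1dun1 2.27 and 2.31, those of mec1 2.36 and 2.41, and those of crt1 2.57 and 1.72. In tel1mec1 it read 3.17 and 2.69, a difference of 0.59 from the checkpoint-proficient strains that did not pass (adjusted p 0.062). With RAD53 deleted the difference was 1.05 (SE 0.15, adjusted p 1.1e-05), and 2.29 with arrays scaled to one spread. Tested directly, SRX1 was 1.39 higher in the rad53-deleted than in the dun1-deleted strains (SE 0.18, adjusted p 3.7e-05), where 5.17% of all genes were higher, and 1.29 higher without the doubtful dun1 array. The other calls of that contrast, YCF1 (0.22) and LOT6 (-0.25), were lost without that array (adjusted p 0.058 and 0.052). In dun1rad53 minus dun1 it was the one gene of the 41 called, at 1.90 (SE 0.29, adjusted p 0.00072, 0.59% of all genes higher), and 1.71 without the doubtful dun1 array.

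Across the 41 genes, 15 responded less with RAD53 deleted than in the checkpoint-proficient strains, when 23.9% of all genes did, and 8 responded more, when 23.5% of all genes did. The median difference over the 41 was -0.09, beside 0.01 over all genes. The rad53-deleted and the checkpoint-proficient strains shared no slide. The share called lower was 36.6% of the 41 and the share called higher 19.5%. Without the strain chk1rad53, a setting added after the data were seen, 11 were lower (26.8% of the 41, 22% of all genes). In that setting 8 were higher (19.5% of the 41, 21.4% of all genes), so that both shares lay nearer those of all genes. All 6 rad53-deleted replicates lay below all 10 checkpoint-proficient ones for 6 of the 41 genes (TSA2, TRX3, TRR2, GPX1, GTT1 and LOT6), when that held for 9.08% of all genes. They lay above them for SRX1 alone, when that held for 7.22% of all genes.

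The transferases held the most lower calls of any class. With RAD53 deleted 5 of the 6 genes of that class were lower: GTT1 by -0.88, ECM4 by -0.75, GTT2 by -0.50, GTO3 by -0.50 and GTO1 by -0.40. GTT2 turned sign when arrays were scaled to one spread. The sixth, YCF1, was higher (0.17, SE 0.06, adjusted p 0.019). Its call was lost in 5 of 28 alternatives, among them each dye alone: 0.23 with MMS in Cy5 (adjusted p 0.087) and 0.12 in Cy3 (0.43). Among the glutathione peroxidases GPX1 (-0.65, SE 0.11) and HYR1 (-0.58, SE 0.09) were lower and GPX2 was higher (0.59, SE 0.14). From arrays with MMS in Cy3 alone GPX2 was 0.07 (adjusted p 0.85), beside 1.11 in Cy5. GPX1 read from 0.49 to 1.22 in the checkpoint-proficient replicates and from 0.08 to 0.36 with RAD53 deleted. GPX2 read from 0.66 to 2.11 and from 1.90 to 2.69, so that its ranges overlapped.

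In the thioredoxin system 3 of the 5 genes were called. The mitochondrial TRX3 (-0.41, SE 0.07) and TRR2 (-0.29, SE 0.06) were lower with RAD53 deleted and the cytosolic reductase TRR1 was higher (0.49, SE 0.10, adjusted p 0.00041). TRR1 read from 0.15 to 0.71 in the checkpoint-proficient replicates and from 0.57 to 1.17 with RAD53 deleted, with some overlap. From arrays with MMS in Cy3 alone it was 0.15 (adjusted p 0.59). TRX1 and TRX2 were not called. Of the peroxiredoxins TSA1 was higher (0.34, SE 0.10) where TSA2 was lower. TSA1 was 0.22 (adjusted p 0.21) from arrays with MMS in Cy3 alone. The remaining lower calls were OYE3 (-0.55), LOT6 (-0.36), MXR2 (-0.36), GRX1 (-0.32) and YAP1 (-0.22). With arrays scaled to one spread OYE3 (-0.16) and GRX1 (-0.17) lost the call and YAP1 turned to 0.09, not called. The remaining higher calls, OYE2 (0.27), GSH1 (0.24) and CCS1 (0.17), lost the call when single replicates were left out. OYE2 turned to -0.03 in arrays with MMS in Cy3 alone. The count of 8 higher was 5 without tel1 replicate 2, ste11 replicate 1 or dun1rad53 replicate 2. Glutaredoxins GRX2 to GRX5, GSH2, GLR1, SOD1, SOD2 and ZWF1 were among the 18 genes not called in either direction. For GSH2 the difference was 0.01, with a 95% interval from -0.12 to 0.15.

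In tel1mec1 11 of the 41 genes responded less than in the checkpoint-proficient strains, when 12.8% of all genes did: TSA2 (-1.21), ECM4 (-1.15), GTT1 (-0.999), GTT2 (-0.70), GPX1 (-0.67), GTO3 (-0.63), TRX3 (-0.48), HYR1 (-0.46), GTO1 (-0.38), TRR2 (-0.31) and LOT6 (-0.27). With arrays scaled to one spread GTT2 turned to 0.19, not called, and ECM4 (-0.58), TRR2 (-0.23) and LOT6 (-0.11) lost the call. None was called higher by limma, when 9.55% of all genes were, and 3 were higher at an unadjusted p under 0.05: SRX1 (0.59), GPX2 (0.53) and OYE2 (0.43). The count of 11 was 6 without tel1mec1 replicate 1 and 5 without replicate 2. Between tel1mec1 and mec1 no gene of the 41 was called by limma in either direction, when 0.661% of all genes were higher and 1.72% lower. At an unadjusted p under 0.05, 1 was higher and 6 were lower.

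With DUN1 deleted (dun1 and chk1dun1) 7 genes responded less, when 4.31% of all genes did: TSA2 (-1.20), ECM4 (-0.79), GTT2 (-0.63), GTT1 (-0.53), GPX1 (-0.43), HYR1 (-0.37) and GTO1 (-0.29). Of these TSA2 (-0.83) and GTT1 (-0.35) were still called with arrays scaled to one spread. ECM4 (-0.32), GTT2 (-0.01), GPX1 (-0.27), HYR1 (-0.27) and GTO1 (-0.20) were not. OYE2 (0.56, SE 0.12, adjusted p 0.0066) and CCS1 (0.26, SE 0.07, adjusted p 0.039) responded more, when 1.57% of all genes did. Of 26 alternatives the CCS1 call was lost in 12 and the OYE2 call in 4. Among these 4 were each dye alone (0.61 with MMS in Cy5, 0.51 in Cy3) and the fit without dun1 replicate 2 (0.46). OYE2 read 0.86 and 1.26 in dun1 and 1.50 and 1.27 in chk1dun1, beside 0.28 to 1.04 in the checkpoint-proficient replicates, so that only its lowest value overlapped. The count of 7 was 4 without dun1 replicate 2 or either chk1dun1 replicate and stayed 7 without the doubtful dun1 array, where TSA2 was -1.31, ECM4 -0.76 and GTT1 -0.55. In mec1 3 genes responded less, when 2.90% of all genes did: TSA2 (-0.87), ECM4 (-0.75) and GTT1 (-0.52). None of these 3 was called with arrays scaled to one spread, at -0.48, -0.27 and -0.34 (adjusted p 0.17, 0.56 and 0.10). Without mec1 replicate 2 only 1 was called. When the 4 arrays named above were left out 2 were, and GTT1 (-0.56) lost its call with an adjusted p of 0.18. The contrasts with DUN1 or MEC1 deleted were added after the data were seen.

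**Figure D3:**
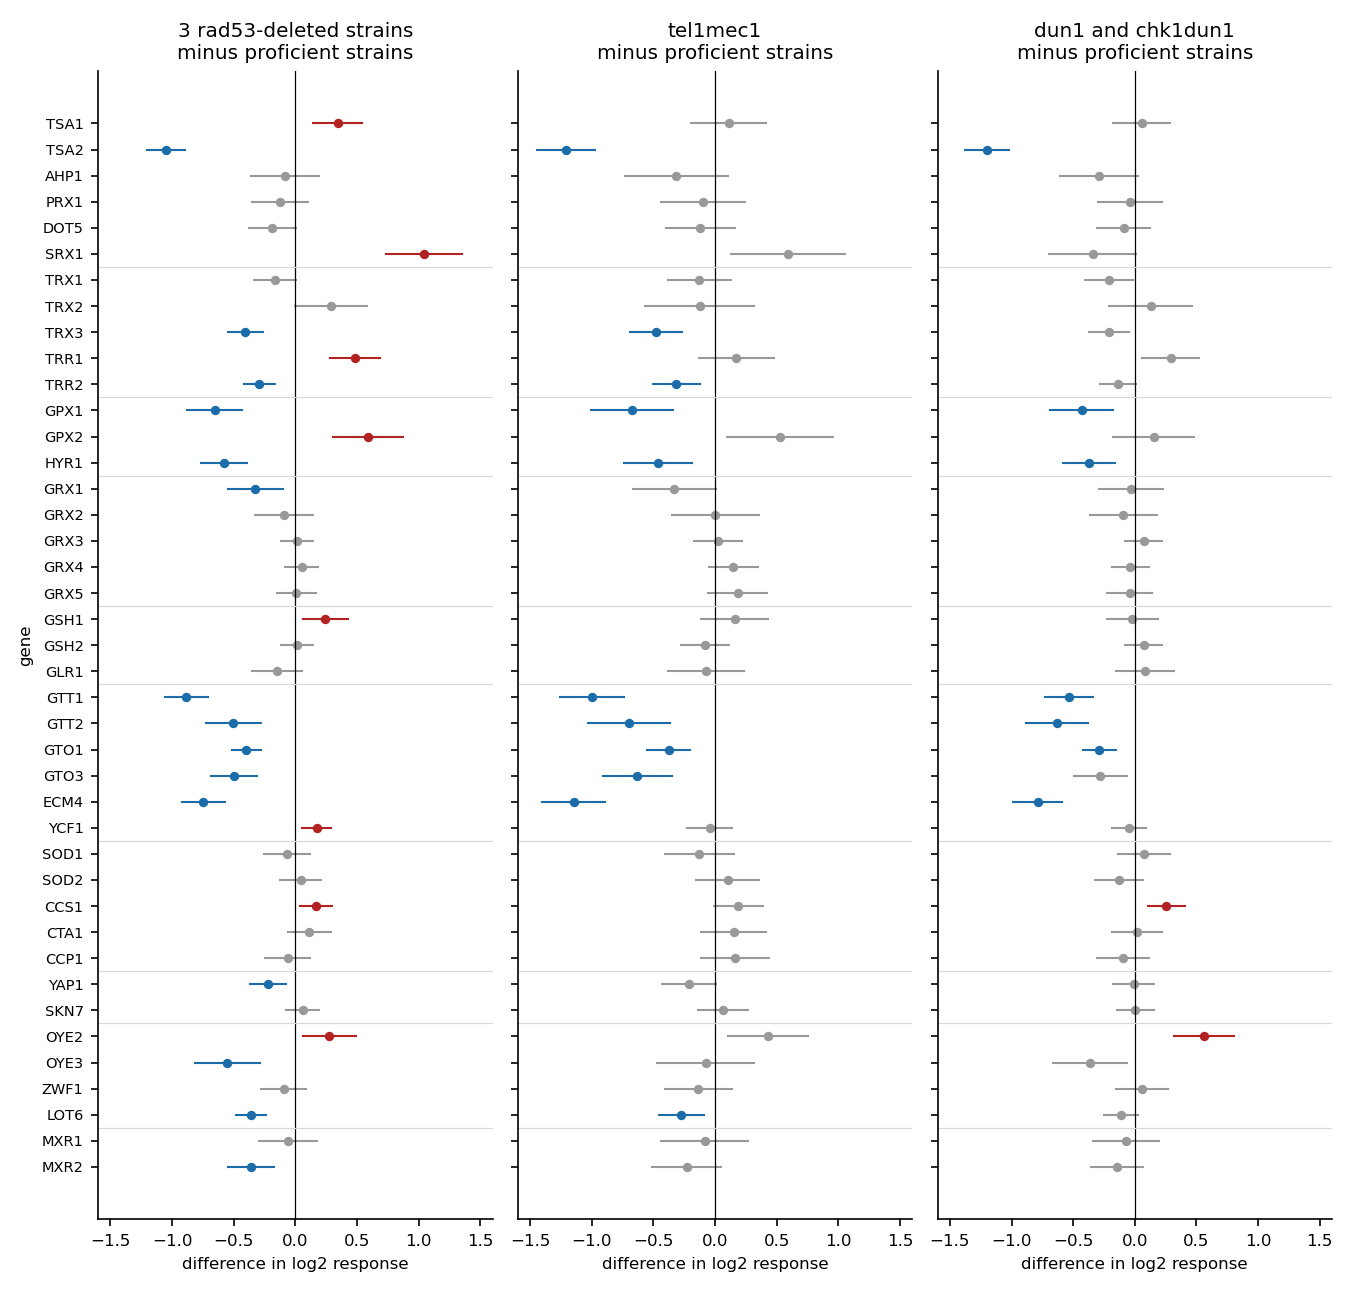
Points are differences in log2 response from the checkpoint-proficient strains for the 41 genes, in the order of the classes, with 95% intervals of the limma fit; red is called higher, blue lower and grey not called. TSA2 was lower by -1.05, -1.21 and -1.20 in the panels from left to right and SRX1 was called higher with RAD53 deleted (1.05) and in neither other panel; with arrays scaled to one spread GTT2 turned sign with RAD53 deleted and in tel1mec1, YAP1 turned sign with RAD53 deleted, ECM4 lost its call in all 3 panels, TRR2 and LOT6 lost theirs in tel1mec1, OYE3 and GRX1 with RAD53 deleted, and GTT2, GPX1, HYR1 and GTO1 with DUN1 deleted.

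Against wild type alone, with n = 2 on each side, fewer genes passed. None of the 41 differed in sml1, tel1, chk1, ste11 or crt1, where limma called few of all genes (1 higher in chk1, 1 higher and 14 lower in crt1, and 0 in the others), so that a count of 0 is near the background. At an unadjusted p under 0.05 the numbers of the 41 were 0, 4, 2, 1 and 2. Lower than in wild type were 2 genes in dun1 (0.536% of all genes), 1 in chk1dun1 (0.483%), 2 in mec1 (1.05%) and 5 in tel1mec1 (7.85%). In rad53 6 were lower (10.9%) and 2 higher (10.3%), in chk1rad53 9 were lower (7.72%), and in dun1rad53 7 were lower (8.54%) and 1 higher (7.58%). TSA2 was among the lower genes in all 7 of these strains, from -1.17 in dun1 to -0.80 in mec1. With arrays scaled to one spread TSA2 was called in none of the 7, with values from -0.64 in dun1 to -0.16 in chk1rad53 and adjusted p from 0.24 to 0.85. When the 4 arrays named above were left out it lost the call in mec1 (adjusted p 0.095). Likewise GTT2 (0.077), OYE3 (0.24) and LOT6 (0.053) lost theirs in chk1rad53 and TRX3 (0.052) in dun1rad53, by adjusted p. SRX1 was higher in rad53 (0.90) and dun1rad53 (1.20), as was GSH1 in rad53 (0.51). In rad53 SRX1 was 0.53 (adjusted p 0.29) without rad53 replicate 1, and its call was also lost without either wild-type replicate. GSH1 was 0.26 (0.41) without wild type replicate 2 and 0.32 (0.28) without rad53 replicate 1. In crt1 minus wild type TSA2 was 0.27, with a 95% interval from -0.04 to 0.57 and an adjusted p of 0.64.

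Some slides of the kinase set carried more than one strain, and strains were compared there only with wild type or mec1. The slide with dun1 and ste11 and that with crt1 and sml1, each strain in both dyes, were not compared. On slide 14 the tel1mec1 array lay below the wild-type array by -1.49 for TSA2, -1.49 for GTT1 and -1.27 for ECM4, and above it by 0.67 for SRX1. On slide 16 the mean of the 2 dun1 arrays lay below the wild-type array by -1.27 for TSA2, -0.50 for GTT1 and -1.08 for ECM4. One of these is the array on which DUN1 goes against the label, and the other dun1 array alone lay below by -1.74, -0.58 and -0.95. On slides 14 and 16 sml1 minus wild type was -0.23 and -0.01 for TSA2. On slides 1 and 17 rad53 minus mec1 was 0.92 and 1.45 for SRX1. These comparisons rest on 1 or 2 arrays a strain, with MMS in unlike dyes except for sml1 and the dun1 array taken alone, and have no test. For tel1mec1 and dun1 minus wild type, TSA2, GTT1 and ECM4 had the direction of the fit within slides. SRX1 differed in sign on slide 15, where tel1mec1 minus mec1 was -0.27, beside 0.54 (not called) in the fit. No slide held both a strain without RAD53 and any checkpoint-proficient strain, so slide and genotype cannot be told apart in the contrast between them.

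Of 33 further genes of redox metabolism, 22 rose and 4 fell in wild type (26.8% and 25.4% of all genes). This list too was chosen with earlier results of these data known. GRE2, a reductase gene driven by Yap1, rose by 2.18, SOL4 and GND2, of the pentose phosphate pathway, by 1.89 and 1.08, and the multidrug transporter genes ATR1 and FLR1 by 1.74 and 1.33. ECM38, which degrades glutathione, rose by 1.07 and the glutaredoxin GRX6 by 1.01. With RAD53 deleted 12 of the 33 had a lower log2 response and 3 a higher one (23.9% and 23.5% of all genes). SOL4 (-1.77) and GND2 (-1.17) moved most, followed by the cytosolic catalase CTT1 (-0.70), ECM38 (-0.66), GRX6 (-0.64), IDP2 (-0.54) and GRE2 (-0.47). Whether calls of these 33 genes depend on array scaling, dye orientation or single replicates was not checked. HBN1 (0.35), GRX8 (0.38) and FRM2 (0.16) had higher values. For GRX8 this was a weaker fall, with strain means averaging -0.47 in the checkpoint-proficient and -0.09 in the rad53-deleted strains. CTT1 changed sign, from 0.38 to -0.33. In tel1mec1 8 were lower and 4 higher (12.8% and 9.55% of all genes), so that the 4 are near the background share. FLR1 (0.94, adjusted p 0.015) was among them. With DUN1 deleted SOL4 (-0.88), GND2 (-0.74) and CTT1 (-0.72) were lower and HBN1 (0.34) higher (4.31% and 1.57% of all genes).

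Paralogs and paired steps differed in response in 10 of 12 pairs compared over the 13 kinase-set strain means (sign-flip permutation test, two-sided, adjusted over the 12 pairs). The test takes strains as separate samples, although several share a deletion and all share the treatment. How often other pairs of genes differ was not tested, so the count does not set these pairs apart. GTT2 exceeded GTT1 by 2.05 ± 0.27 (SD over strains) in 13 of 13 strains, with an adjusted permutation p of 0.00042, the smallest this design gives after adjustment. GPX2 exceeded GPX1 by 1.27 ± 0.61, TRX2 exceeded TRX1 by 0.83 ± 0.25, ECM4 exceeded GTO3 by 1.18 ± 0.29 and GSH1 exceeded GSH2 by 0.60 ± 0.17, each in 13 of 13 strains with the same p. GRX4 lay below GRX3 by -0.75 ± 0.11 in all 13 strains, the smallest spread of the 12. These differences recurred in sign in all 5 factor-set strains, where 5 strains cannot give a permutation p under 0.0625 and no test was made.

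The pairs also varied by strain. TSA2 exceeded TSA1 by 1.07 ± 0.72 in 13 of 13 strains, from 0.14 in dun1rad53 to 2.01 in ste11. OYE3 exceeded OYE2 by 0.61 ± 0.54 in 11 of 13 strains (adjusted permutation p 0.0029), and the order was turned in chk1rad53 (-0.29) and by a smaller amount in chk1dun1. TRR1 exceeded TRR2 by 0.37 ± 0.34 in 12 of 13 strains (0.002), from -0.09 in tel1 to 0.94 in rad53. SOD1 exceeded SOD2 by 0.25 ± 0.17 in 12 of 13 strains (0.00073). GRX1 and GRX2 (-0.02 ± 0.18, adjusted permutation p 0.63) and MXR1 and MXR2 (-0.13 ± 0.22, 0.073) did not pass.

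**Figure D4:**
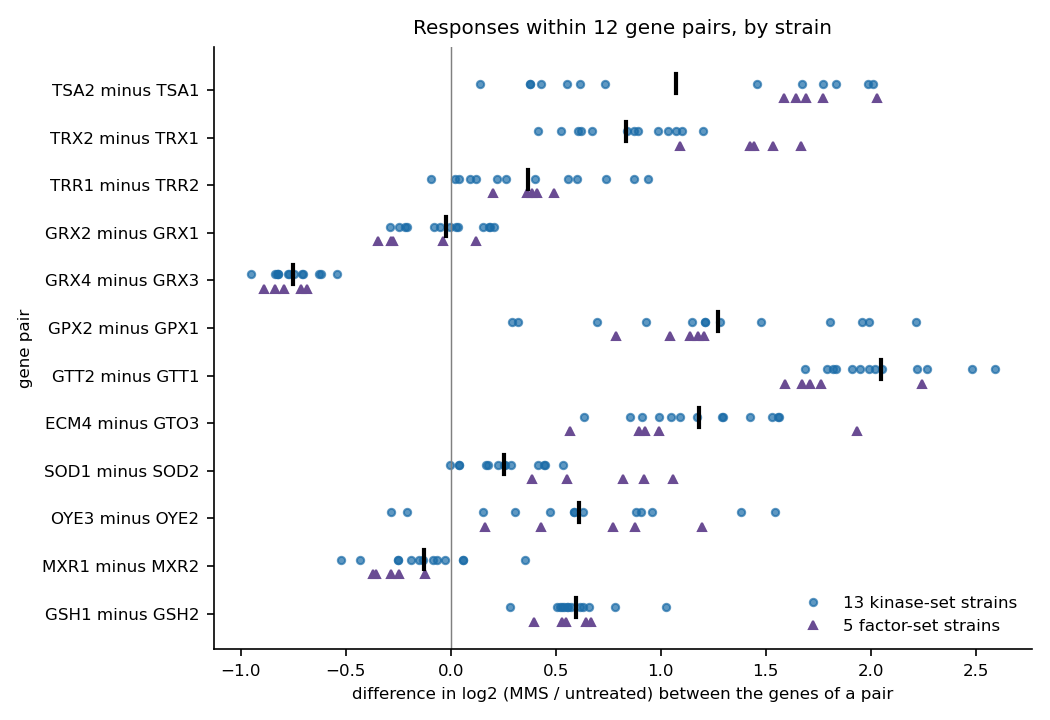
Each point is 1 strain's difference in log2 response between the genes of a pair (circles, 13 kinase-set strains; triangles, 5 factor-set strains); the black bar is the mean over the kinase set. GTT2 minus GTT1 lay at 1.69 or above in the kinase set, GRX4 minus GRX3 below 0 in all 18 strains, and TSA2 minus TSA1 spread from 0.14 to 2.01 in the kinase set.

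In the factor set each strain was set against the mean of the other four, and 9 differences were called in 3 strains. GTO3, an omega class glutathione transferase, stood out in rcs1, which lacks the iron regulator Aft1. It read 0.57 and 0.44 there, against 1.69 and 1.37 in hap1, 1.26 and 1.08 in hap4, 1.38 and 1.34 in sut1, and 1.29 and 1.43 in yap7. The ranges did not overlap, and the difference was -0.85 (SE 0.09, adjusted p 0.0029), when 0.197% of all genes were lower. For how many of all genes the rcs1 range stood apart was not counted. No other of the 41 was called in rcs1.

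Strain hap4 lacks an activator of respiratory genes. SOD2, the mitochondrial superoxide dismutase, read 0.06 and 0.01 there, against 1.10 and 0.81 in hap1, 0.71 and 0.86 in rcs1, 0.49 and 0.29 in sut1, and 0.52 and 0.17 in yap7. Every hap4 replicate lay below all others, with a difference of -0.58 (SE 0.11, adjusted p 0.031). How many of all genes separate hap4 in this way was not counted. CCP1, which read 0.07 and -0.17 in hap4, also responded less (-0.38, SE 0.08), as did TRX2 (-0.54), GPX2 (-0.36) and GRX2 (-0.34), when 1.45% of all genes did. GTT2 responded more (0.37, SE 0.08), when 0.93% of all genes did. With a replicate block GPX2 (adjusted p 0.067), CCP1 (0.067) and GTT2 (0.076) lost the call. In hap1, which lacks a heme-responsive factor, SOD2 (0.56, SE 0.11) and GRX2 (0.35, SE 0.07) responded more, when 1.31% of all genes did. In sut1 and yap7 none of the 41 was called by limma, with 4 higher and 3 lower in sut1 and 5 higher and 3 lower in yap7 at an unadjusted p under 0.05. Most of these calls were fragile: of 19 alternatives the GTO3 call was lost in 2, SOD2 in hap4 in 7, SOD2 in hap1 in 9, and CCP1 in 14.

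Class medians varied with genotype to unlike extents in the kinase set. The glutathione supply median ran from 0.84 in chk1rad53 to 1.26 in dun1rad53, with 1.04 in wild type. That of the glutathione peroxidases ran from 0.12 in dun1rad53 to 1.03 in crt1, and that of the transferases from 0.45 in tel1mec1 to 1.08 in chk1. The glutaredoxin median stayed between 0.22 and 0.48. By compartment, the 7 mitochondrial genes had a median of 0.37 in wild type and 0.06 in rad53, and the 21 cytosolic genes 0.68 and 0.58. With 2 to 6 genes in a class these medians describe the list and have no test.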

How the data were processed

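Per the submitters' processing notes the authors normalized the arrays with limma. They deposited 1 log ratio of Cy5 over Cy3 per probe, taken here as log2, since neither base nor centring is stated. Array medians lay from -0.018 to 0.021. Using the dyes in the labels, the sign was turned on arrays that carried MMS in Cy3. As deposited, opposite-dye arrays of a strain had r from -0.876 to -0.174 (kinase set) and -0.847 to -0.633 (factor set). Arrays of opposite dye with the same strain and replicate number were averaged (n = 2 a strain). Probes were named through the platform annotation and averaged by gene. One limma 3.58.1 fit per table (R 4.3.3, lmFit, eBayes) had 13 and 5 residual degrees of freedom. Contrasts were tested at a Benjamini-Hochberg adjusted p under 0.05 over all genes. The fit was tested on simulated data. Replicate numbers did not pair the samples: deviations of same-numbered replicates correlated from -0.46 to 0.43 over 78 strain pairs. The members and the list of further genes were chosen with earlier results of these data known. All 41 members could be named; further genes were named where called in a difference or at a response of 1 or more. The number of arrays limits the precision. Alternatives covered scaling, centring, dye orientation, slide and replicate blocks, and left-out replicates and arrays.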

Additional observations from a re-analysis of the deposited data

Results flagged for a closer look

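Chance flags about 1 group in 20 for a sample far from the others, and 4 such values appeared. The median of the 41 genes was 0.34 on the rad53 replicate 2 array with MMS in Cy3, away from the other rad53 arrays. SRX1 in tel1 (2.06) lay below the other checkpoint-proficient strains. In the factor set TSA1 in rcs1 (0.31) and SKN7 in sut1 (-0.22) lay above the other strains.

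The other values below were listed because the response differed between strains in the test of the difference. Rad53-deleted minus checkpoint-proficient strains gave TSA2 -1.05, GTT1 -0.88, ECM4 -0.75, GPX1 -0.65, HYR1 -0.58, OYE3 -0.55, GTT2 -0.50, GTO3 -0.50, TRX3 -0.41, GTO1 -0.40, LOT6 -0.36, MXR2 -0.36, GRX1 -0.32, TRR2 -0.29 and YAP1 -0.22, and, as higher, SRX1 1.05, GPX2 0.59, TRR1 0.49, TSA1 0.34, OYE2 0.27, GSH1 0.24, YCF1 0.17 and CCS1 0.17. Tel1mec1 minus the same strains gave TSA2 -1.21, ECM4 -1.15, GTT1 -0.999, GTT2 -0.70, GPX1 -0.67, GTO3 -0.63, TRX3 -0.48, HYR1 -0.46, GTO1 -0.38, TRR2 -0.31 and LOT6 -0.27. The dun1-deleted strains gave TSA2 -1.20, ECM4 -0.79, GTT2 -0.63, GTT1 -0.53, GPX1 -0.43, HYR1 -0.37, GTO1 -0.29, OYE2 0.56 and CCS1 0.26, and mec1 gave TSA2 -0.87, ECM4 -0.75 and GTT1 -0.52. Rad53-deleted minus dun1-deleted strains gave SRX1 1.39, YCF1 0.22, GTT1 -0.35 and LOT6 -0.25, of which YCF1 and LOT6 lost the call without the doubtful dun1 array, and dun1rad53 minus dun1 gave SRX1 1.90.

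Against wild type, dun1 gave TSA2 -1.17 and ECM4 -0.80, chk1dun1 gave TSA2 -1.07, and mec1 gave TSA2 -0.80 and ECM4 -0.71. Tel1mec1 gave TSA2 -1.13, TRX3 -0.46, GTT1 -1.001, GTT2 -0.83 and ECM4 -1.11. Strain rad53 gave TSA2 -0.83, TRX3 -0.44, HYR1 -0.65, GTT1 -0.91, LOT6 -0.40, MXR2 -0.51, SRX1 0.90 and GSH1 0.51. Strain chk1rad53 gave TSA2 -1.01, HYR1 -0.66, GRX1 -0.67, GTT1 -0.86, GTT2 -1.09, GTO1 -0.37, ECM4 -1.04, OYE3 -0.78 and LOT6 -0.43. Dun1rad53 gave TSA2 -1.08, TRX3 -0.41, GPX1 -0.64, HYR1 -0.54, GTT1 -0.89, ECM4 -0.70, LOT6 -0.36 and SRX1 1.20. Against the other four factor strains, hap1 gave GRX2 0.35 and SOD2 0.56, hap4 gave TRX2 -0.54, GPX2 -0.36, GRX2 -0.34, SOD2 -0.58, CCP1 -0.38 and GTT2 0.37, and rcs1 gave GTO3 -0.85.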

How the results depend on the processing

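Replicates and single dyes moved several counts. Single dyes and left-out replicates use fewer arrays, and for the other settings the cause was not tested. From arrays with MMS in Cy5 alone, 1 gene was lower in wild type, 11 were higher in all 13 strains, 5 were higher with RAD53 deleted, 3 were lower in tel1mec1 and 3 with DUN1 deleted. From arrays with MMS in Cy3 alone these were 1, 8, 3, 6 and 2, with a wild-type median of 0.51. Wild-type calls lost with Cy3 alone were TSA1, AHP1, TRX1, TRX2, TRX3, GRX2, GRX4, GTO3, SOD1, CCP1, ZWF1 and MXR2. With Cy5 alone they were DOT5, TRR1, TRR2, GRX3, GTO1, SKN7 and OYE2. With arrays scaled to one spread the wild-type median was 0.47, 7 genes were lower and 5 higher in tel1mec1, 2 were lower with DUN1 deleted and 1 in mec1, which was none of the 3 genes called there otherwise. An adjusted p under 0.01 left 4 higher with RAD53 deleted, and single arrays with a dye term or slide as a random block gave 1 higher in tel1mec1. Leaving out a replicate gave 1 to 2 genes lower in wild type with a median of 0.62 to 0.656, 13 to 21 higher in all 13 strains, 5 to 9 higher with RAD53 deleted, 5 to 12 lower and 0 to 2 higher in tel1mec1 (2 without tel1 replicate 1, tel1 replicate 2 or ste11 replicate 2, and 1 without sml1 replicate 2), 4 to 8 lower with DUN1 deleted and 1 to 4 lower in mec1.

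Direction turned in 12 single values. Scaled arrays turned GTT2 in tel1mec1 (0.44) and chk1rad53 (0.46) minus wild type and in rad53-deleted (0.45) and tel1mec1 (0.19) minus checkpoint-proficient strains, ECM4 in mec1 (0.0426), chk1rad53 (0.0367) and dun1rad53 (0.22) minus wild type, and YAP1 with RAD53 deleted (0.0914). MMS in Cy3 alone turned AHP1 (-0.15) and MXR2 (-0.00919) in wild type and OYE2 (-0.0338) with RAD53 deleted. MXR2 was -0.0195 without wild type replicate 2 and 0.777 without replicate 1. With a replicate block, which pairs only numbers here, these counts were unchanged: 35 and 2 in wild type, 20 and 31 in all strains of a set, 15 and 8 with RAD53 deleted, 11 and 0 in tel1mec1, 7 with DUN1 deleted and 3 in mec1. The block ended 4 single calls, GPX2 (adjusted p 0.067), CCP1 (0.067) and GTT2 (0.076) in hap4 and YCF1 in rad53-deleted minus dun1-deleted strains (0.056). No gene pair changed its call with medians over strains or without dun1 and chk1rad53. Each member has 1 probe, so the choice of probe changed nothing. The signal over background of the arrays is not analysed here.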
